A study of Arabidopsis thaliana with 4 samples.

Results

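Dirigent proteins are small secreted proteins that steer how phenoxy radicals join, so that coupling yields 1 mirror-image form of a lignan rather than a mixture. The radicals come from monolignols, the alcohols that also build lignin, and are made by laccases and peroxidases in the cell wall. In Arabidopsis, DIR5 and DIR6 direct the coupling that gives the lignan pinoresinol, and ESB1, another dirigent-domain protein, is needed to place lignin in the Casparian strip of the root endodermis. The products of most other dirigent-like genes, AT4G11190 among them, are less well understood.

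The genes described here are 10 dirigent and dirigent-like loci of Arabidopsis thaliana, taken by locus through the array's annotation. AT4G11190 was chosen by its large signal difference between the shoots and buds studied here and the others were added as its relatives, so its values below are a description and carry no test. Of the 10 loci, 6 had a probe set in the annotation used, in which 13286 loci had a probe set of their own. These were AT4G11190, AT4G11210, AT2G21100, AT1G65870 and AT1G22900, each with a probe set of its own, and AT5G42510, whose probe set is also assigned to its relative AT5G42500. The remaining 4 loci, AT4G11180 (DP1), AT1G64160 (DIR5), AT4G23690 (DIR6) and AT5G49040, had no probe set in the annotation used and are not analysed here. The annotation left out 8730 of the 22746 probe sets that are not controls, so a locus missing from it may still be on the array.

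RNA came from axillary shoots of accession Col-0 collected 24 h after decapitation, the removal of the main shoot apex, and from axillary buds of Col-0 collected before it, with 2 ATH1 arrays for each. All plants grew under continuous light at the same temperature, and the labels name no transgene or mutation. Buds of intact plants at the later time were not among the samples, so decapitation, wounding, age and the step from bud to shoot cannot be told apart. Values are MAS5 signals on a linear scale, scaled to a common level on each array.

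Faint signals were compared with those of 27 control probe sets for bacterial genes, whose transcripts plant RNA does not hold; whether any were added to the samples is not stated. The highest of these read 8.48 and 10.2 on shoot arrays 1 and 2 and 8.28 and 8.03 on bud arrays 1 and 2. Only probe sets with a geometric mean of at least 23.1 over the 4 arrays were tested, 13648 in all. Between the 2 arrays of a group, 33.9% of the untested probe sets differed at least 2-fold, against 2.82% of the tested ones. For actin, the signal of the probe set at the 3' end over that at the 5' end, a measure of RNA integrity, was 0.990 and 1.14 in shoots and 1.66 and 1.38 in buds. An older pair of actin probe sets gave ratios of 2.13 and 3.19 in shoots and 5.81 and 6.67 in buds. Both ratios moved with the groups, and their part in the results below was not tested. Fixed marker genes were those of shoot meristem (8 loci), epidermis (4), xylem (7), root (5) and floral organs (4). Only CLV3, EXPA7 and EXPA18 among them had a probe set in the annotation used. CLV3, which encodes a stem cell signal of the shoot meristem, read 4.39 and 1.22 in shoots and 1.06 and 7.32 in buds, all below the highest bacterial control of the same array, so the labelled tissue could not be checked with these genes. The root hair expansin genes read 6.27 and 5.60 in shoots and 4.21 and 3.77 in buds for EXPA7, and 14.1 and 6.97 in shoots and 11.5 and 4.27 in buds for EXPA18.

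AT4G11190 read 115 and 60.9 on shoot arrays 1 and 2, and 6.46 and 8.26 on bud arrays 1 and 2. Both shoot signals lay far above the bacterial controls, while the bud signals lay at their upper edge, below the highest control on array 1 and just above it on array 2. The gene was thus readily measured in the shoots and hardly distinguishable from background in the buds. Mean signals were 88.2 ± 38.6 in shoots and 7.36 ± 1.27 in buds (SD, n = 2 each), and the fitted difference was 3.52 on the log2 scale, a ratio of geometric means of 11.5. Over the 4 possible pairs of a shoot and a bud array the ratio ran from 7.37 to 17.9. With every signal raised to at least the highest bacterial control of its array, the ratio was 10.1. With a pseudocount of 16 it was 4.31. By size of increase the gene ranked 1 among the 7356 tested probe sets of a single locus and 2 among all tested probe sets. Among those of a single locus it ranked 2 with the bacterial floor and 13 with the pseudocount, so its rank depends on how its faint bud signals are treated. In whole buds and shoots, more cells that express a gene and more RNA per cell cannot be told apart.

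**Figure D1:**
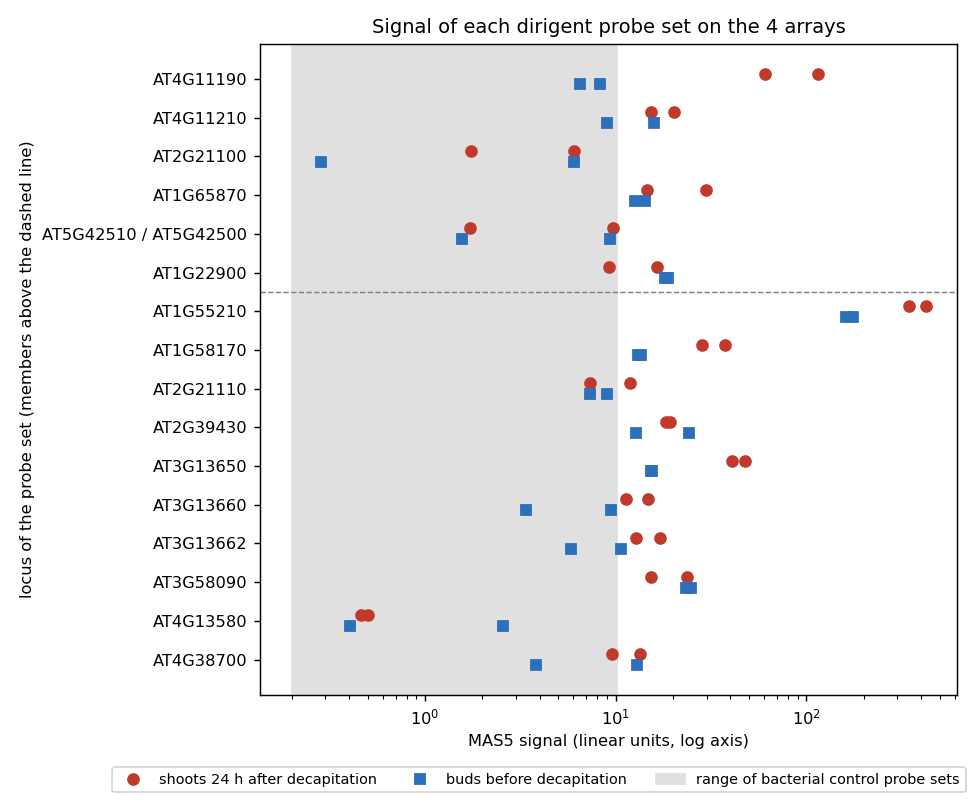
MAS5 signal of each dirigent probe set on a log axis, with circles for the 2 shoot arrays and squares for the 2 bud arrays of each locus; the grey band spans the 27 bacterial control probe sets over all arrays. AT4G11190 lies in the band in buds and at 60.9 and 115 in shoots, while the other members lie between 0.285 and 29.8 over both groups.

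AT4G11190 lies in a cluster of dirigent genes on chromosome 4. In the TAIR10.1 gene order it follows AT4G11180 directly, and a single pseudogene, AT4G11200, separates it from AT4G11210. AT4G11180 is DP1, whose product is known from the making of neolignans in the seed coat. AT4G11210 was the only other gene of this cluster with a probe set in the annotation used. It gave 20.2 and 15.4 in shoots and 8.99 and 15.9 in buds. The groups overlapped, since bud array 2 read higher than shoot array 2, and the log2 difference of 0.56 was 2.96 smaller than that of AT4G11190. A difference as large as that of AT4G11190 was not seen in its measured neighbour, and at a geometric mean of 14.5 AT4G11210 was too dim to be tested.

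The remaining members were dim in both groups. AT1G65870 read 14.7 and 29.8 in shoots and 14.3 and 12.6 in buds; the shoot signals were the higher ones, but shoot array 1 exceeded bud array 1 by a ratio of only 1.03. AT1G22900 was the one member with both shoot signals below both bud signals, at 9.19 and 16.4 in shoots and 18.9 and 18.2 in buds, a log2 difference of −0.59. AT2G21100 gave 1.74 and 6.02 in shoots and 6.05 and 0.285 in buds. All 4 of these signals were below the highest bacterial control of their array, so AT2G21100 was not above background in either group. The probe set shared by AT5G42510 and AT5G42500 gave 9.66 and 1.72 in shoots and 9.35 and 1.56 in buds. Array 1 was the brighter one in both groups, the group means differed little, and the signal cannot be assigned to either gene.

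Of the 5 members with a probe set of their own, AT4G11190 alone passed the filter on low signals. Its bud signals were below 23.1, so it passed only through the shoots. Passing the filter thus adds nothing to the difference it was picked for. It was also the only member called (limma with Benjamini-Hochberg adjustment at 0.05), in a comparison in which 22.1% of all tested probe sets were called, 10.2% as higher and 12.0% as lower in shoots; since it was picked for this difference, nothing is read from that count. With no filter, all 22746 probe sets that are not controls were tested and 4.45% were called higher in shoots. In that fit AT4G11210 had an adjusted p of 0.507, AT1G65870 0.435, AT2G21100 0.645 and AT1G22900 0.457, so a difference was not detectable for any of these 4 genes. With AT4G11190 left out, both shoot signals exceeded both bud signals for 1 of the 4 other members, against 23.2% of all probe sets. The reverse held for 1 of the 4, against 31.9%.

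The family in Arabidopsis is larger than these 10 loci, and 15 further loci were listed from general knowledge of the family. In the annotation used, 10 of these had a probe set of their own. AT5G42500 and AT1G07730 had only a probe set shared with another gene, and ESB1, AT3G24020 and AT3G55230 had none there. The gene table used here gives no family or function for the 10, so they are named by locus only. Of the 10, AT1G55210 and AT3G13650 passed the filter on low signals. With no filter, all 10 were tested, and these 2 were called higher and 0 lower in shoots. Of all 22746 probe sets, 1012 (4.45%) were called higher and 1274 lower in that fit. So few calls among 10 loci are not read as a direction of the family.

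AT1G55210 was well above the bacterial controls on every array. It read 423 and 347 in shoots and 177 and 162 in buds. The groups did not overlap, with means of 385 ± 53.7 in shoots and 169 ± 10.6 in buds (SD, n = 2 each). The gene rose 2.27-fold (limma log2 fold change 1.18, SE 0.20, adjusted p = 0.00773, n = 2 in each group). Without shoot array 1 the log2 fold change was 1.04 and missed the threshold (limma adjusted p = 0.0611), with the spread then taken from the buds; over all alternatives the adjusted p ran from 0.000876 to this value.

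AT3G13650 read 40.5 and 47.7 in shoots and 15.5 and 15.4 in buds, a ratio of geometric means of 2.84. Its bud signals were below 23.1, so it passed the filter only through the shoots. With no filter, where this choice plays no part, its limma log2 fold change of 1.51 had an adjusted p of 0.0262, beside 0.0109 with the filter. With a single shoot array the log2 fold change was 1.63 without shoot array 1 (limma adjusted p = 0.0658) and 1.39 without shoot array 2 (limma adjusted p = 0.0592). The lone shoot array is then assumed to vary like the bud arrays. The gene was not tested with the stricter filter. Apart from these changes of filter, every alternative kept the main filter, so the gene's adjusted p values there are not read as support. AT3G13650 also lies in a cluster: in the TAIR10.1 order AT3G13660 and AT3G13662 follow it with no gene in between. AT3G13660 read 11.3 and 14.8 in shoots and 9.47 and 3.37 in buds. AT3G13662 read 17.1 and 12.7 in shoots and 10.6 and 5.83 in buds. In both genes the shoot signals were above both bud signals, with log2 differences of 1.19 and 0.91, but 1 bud array of each lay within the bacterial controls, and with no filter their limma adjusted p values were 0.284 and 0.316.

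AT1G58170 came close to the threshold. Its signals were 37.5 and 28.3 in shoots and 13.1 and 13.5 in buds, without overlap, a log2 difference of 1.29. Its geometric mean of 20.8 kept it from the main test, and with no filter its limma adjusted p was 0.0567. The groups overlapped for the remaining 5 of the 10 further loci, AT2G21110, AT2G39430, AT4G38700, AT3G58090 and AT4G13580. AT3G58090 read 15.4 and 23.6 in shoots and 23.4 and 24.7 in buds, and AT2G39430 read 18.3 and 19.3 in shoots and 12.8 and 24.1 in buds. AT2G21110 and AT4G38700 had log2 differences of 0.21 and 0.69, and AT4G13580 had no signal above the bacterial controls on any array. The probe set shared by AT1G07730 and AT1G07740 read 13.3 and 11.7 in shoots and 16.7 and 6.82 in buds.

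**Figure D2:**
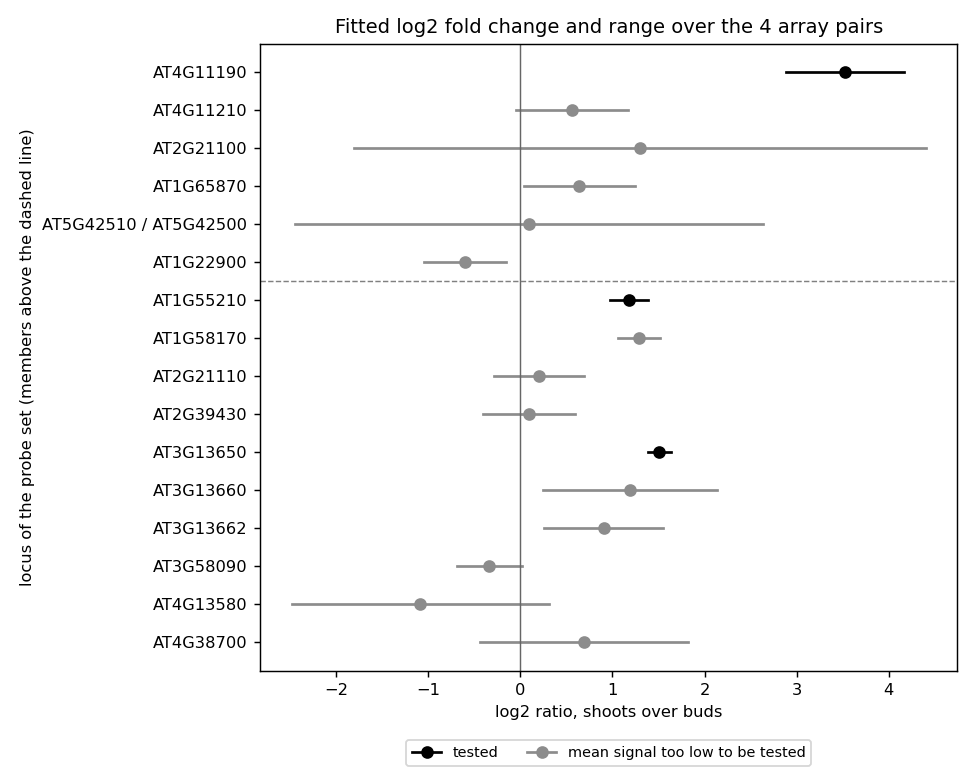
Log2 ratio of shoots over buds for each dirigent probe set. Points are fitted log2 fold changes, bars run from the lowest to the highest of the 4 shoot-to-bud array pairs, and black marks the tested probe sets. AT4G11190 lies at 3.52, AT3G13650 at 1.51 and AT1G55210 at 1.18, and the bar of AT2G21100 spans both directions.

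Set against its relatives, AT4G11190 had the largest fitted log2 fold change of the 15 dirigent loci with a probe set of their own. Of the 14 relatives, AT2G21100 and AT4G13580 were not above the bacterial controls on any array, so their log2 differences have no meaning. The log2 fold change of AT4G11190 exceeded those of the other relatives by 2.01 (AT3G13650) to 4.12 (AT1G22900). For 13 of the 14 relatives even the highest ratio over the array pairs was below 7.37, the lowest ratio of AT4G11190; the exception was AT2G21100, whose ratios ran from 0.288 to 21.1 with 1 bud array at 0.285. AT4G11190 was picked for its difference and is left out of the next counts. Both shoot signals exceeded both bud signals in 1 of the 4 other members and 5 of the 10 further loci, beside 23.2% of all probe sets. The reverse held in 1 of the 4 and 0 of the 10, beside 31.9%. The sign was not stable for some of the dim loci. With 1 array left out it turned negative for AT2G21100 (−0.90), AT2G39430 (−0.36), AT4G38700 (−0.19) and AT2G21110 (−0.14), and positive for AT4G13580 (0.25). The other untested relatives with a probe set of their own kept their sign. The median log2 difference of the 14 relatives was 0.66, against −0.11 over all 22746 probe sets. It includes AT2G21100 and AT4G13580, and was not tested. Because AT4G11190 was picked for its size, the distance to its relatives was not tested.

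The genes with the profile most like that of AT4G11190 over the 4 arrays were looked for among the tested ones, of which only AT1G55210 and AT3G13650 were other dirigent loci. Likeness was the Euclidean distance between log2 signals centred on each gene's own mean, over 7355 other tested probe sets of a single locus. The nearest were AT1G06100 (distance 0.84), AT3G10040 (0.88), AT4G15830 (0.93), AT1G63100 (1.07) and AT2G34190 (1.08). AT3G10040 (HRA1), a gene of the hypoxia response, read 103 and 57.7 in shoots and 12.5 and 10.6 in buds. AT1G06100 read 249 and 177 in shoots and 28.8 and 34.3 in buds. Like AT4G11190, all 5 were higher on shoot array 1 than on shoot array 2, an order that the choice by distance on these arrays favours. Their log2 differences lay between 2.51 and 2.74, below that of AT4G11190. With 4 arrays in 2 groups this likeness mainly picks genes with a large difference between the groups.

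**Figure D3:**
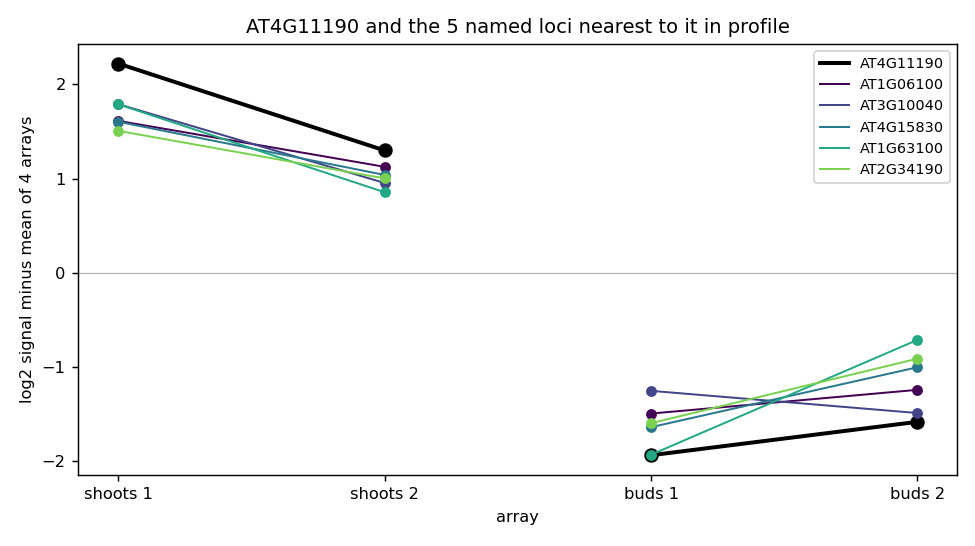
Log2 signal minus the gene's mean over the 4 arrays, for AT4G11190 (thick black line) and the 5 tested loci nearest to it, with lines joining the 2 arrays of a group. All 6 genes are above 0 on the shoot arrays and below 0 on the bud arrays, and AT4G11190 has the widest gap.

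Genes that act beside dirigent proteins were mostly without an annotated probe set. Only HCT and AT5G51890 were tested, and neither passed the threshold in the main fit, where 22.1% of all tested probe sets were called. With so few tested, nothing is read from that count. Of 21 loci for monolignol and lignan enzymes 2 were measured. HCT, which encodes an acyltransferase of monolignol synthesis, read 370 and 469 in shoots and 564 and 495 in buds; the groups did not overlap, but the log2 fold change of −0.34 did not pass (limma adjusted p = 0.282). CCR2, a cinnamoyl-CoA reductase gene, read 0.664 and 0.424 in shoots and 4.35 and 2.13 in buds, below the highest bacterial control of each array. Of 17 laccase loci only LAC16 was measured, and it read at most 1.18 on any array.

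Of 9 lignin-linked peroxidase loci 6 were measured and 1 was tested, with 0 higher and 0 lower in the main fit. This was AT5G51890, which read 28.3 and 62.7 in shoots and 45.9 and 135 in buds, with overlapping groups (limma log2 fold change −0.90, adjusted p = 0.248). Array 2 was the brighter one in both groups, and with the replicate number as a block the same log2 fold change had a limma adjusted p of 0.0104. It also passed without bud array 1, at a log2 fold change of −1.68 (limma adjusted p = 0.0240), while its adjusted p over all alternatives reached 0.872. PRX52 read 7.86 and 11.4 in shoots and 10.5 and 17.7 in buds. Of 9 loci linked to the Casparian strip 2 were measured and none was tested. GSO1, which encodes a receptor kinase that guards the integrity of this barrier, read 12.5 and 17.0 in shoots and 8.43 and 9.68 in buds, a log2 difference of 0.69. AT1G61590 read 0.846 and 0.540 in shoots and 5.58 and 4.00 in buds, below the highest bacterial control of each array.

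The size of the difference in AT4G11190 varied with the arrays used. Leaving out shoot array 1 gave a log2 fold change of 3.06, or 8.33-fold, and leaving out shoot array 2 gave 3.98, or 15.8-fold. Leaving out bud array 1 gave 3.34 and leaving out bud array 2 gave 3.70. Equal array medians gave 3.66 and quantile normalization 3.70. Since the gene was picked for its difference on these arrays, its direction in these settings is no support for it.

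**Figure D4:**
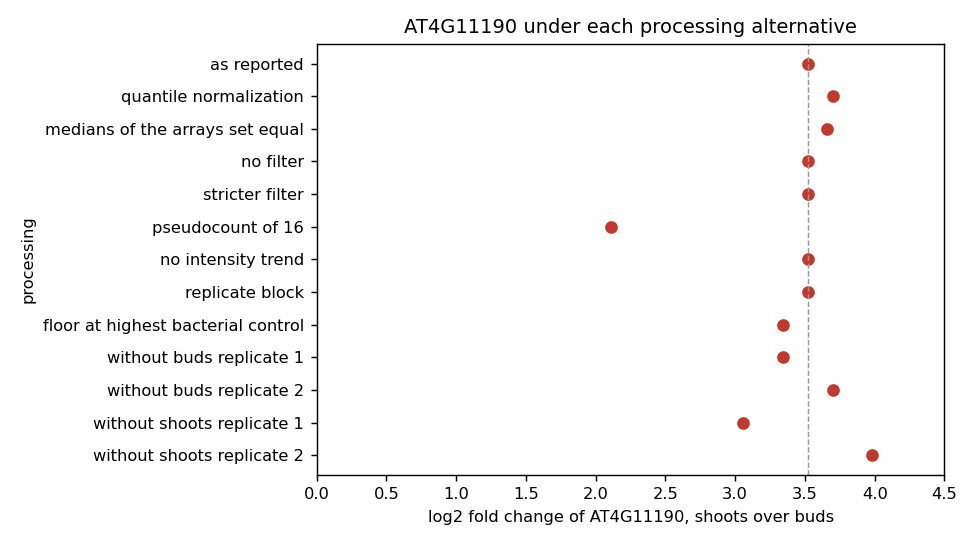
Log2 fold change of AT4G11190, shoots over buds, under each processing alternative, with the dashed line at the reported 3.52. The pseudocount of 16 gives the lowest value, 2.11, and leaving out shoot array 2 the highest, 3.98.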

How the data were processed

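The deposited table holds linear probe set intensities, which the authors computed with MAS5 within GCOS according to the submitters' processing notes, with no versions stated; detection calls were not used. Of 22810 probe sets, 64 controls were left out of the tests. Log2 signals of shoots and buds were compared by limma 3.58.1 (R 4.3.3; lmFit, then eBayes with trend) over the 13648 probe sets in the upper 60% by mean log2 signal, adjusted after Benjamini and Hochberg at a threshold of 0.05. The fit was also run on simulated data with independent arrays and few changed probe sets. That run does not vouch for the calls made here. Loci came from the platform annotation and the TAIR10.1 gene table: 13436 probe sets matched 1 locus.

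Members and lists were chosen with earlier results of these data known. All dirigent loci were named; in other lists, loci past the threshold, or else up to 2 of the brightest. Alternatives were other scalings and filters, a pseudocount, no variance trend, a replicate block and each array left out; the bacterial floor was added after seeing the data. The labels do not state separate plants, so p-values measure only the spread between arrays, which may be technical. Precision is limited by the 2 arrays a group: an exact permutation test of 2 against 2 cannot give a two-sided p below 0.333.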

Additional observations from a re-analysis of the deposited data

How the results depend on the processing

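The numbers of probe sets called, 1388 higher and 1635 lower in shoots, were 2109 and 2548 with the replicate number as a block. Deviations of same-numbered arrays correlated at r = 0.225 across probe sets, but 2 pairs do not show that the numbers pair the samples. With 1 array left out the counts ran from 230 (without shoot array 1) to 1181 higher and from 432 (without shoot array 1) to 1468 lower; the count lower was 944 without bud array 1. Calls higher in shoots were 45.9% of all calls, and 61.1% with equal array medians, which moved the median log2 fold change of the tested probe sets to 0.08 from −0.06. With the stricter filter 0 dirigent members and 1 of the further dirigent loci were past the threshold, because fewer genes were tested. With 1 array left out, 0 to 2 of the further dirigent loci were higher, with 0 without shoot array 1 and 1 without shoot array 2; the member count rests on AT4G11190, picked for its difference, and its stability is not read. The lignin-linked peroxidases had 1 locus lower with the replicate block, and 0 to 1 lower with 1 array left out, the 1 without bud array 1; the cause was not tested. No other dirigent count changed with the block. The log2 fold changes of AT4G11190 and of the untested dirigent loci were judged by how far they moved under an alternative. The 4 that moved by more than the spread between replicates all did so with the pseudocount. They were AT4G11190, AT1G58170 (1.29 to 0.73), AT3G13660 (1.19 to 0.38) and AT3G13662 (0.91 to 0.35). Other filters, no variance trend and the replicate block leave all fitted log2 fold changes the same by design, so they could not move them. For AT2G21100 the spread was so wide that −0.90 and 3.50 did not count as moved. How few moved is therefore not read as stability. Signals near the bacterial controls limit AT2G21100 and the probe set shared by AT5G42510 and AT5G42500, and no difference can be read for them. AT4G11210, AT1G65870 and AT1G22900 were above the highest bacterial control on all 4 arrays. They were too dim for the main test, and with no filter no difference was detectable for them.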
